A study of Mus musculus with 4 samples.

Results

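The genes described here encode the MHC class I antigen presentation machinery of the mouse. They were chosen by symbol in the gene list of the count files, and all 10 named members (H2-K1, H2-D1, B2m, Tap1, Tap2, Tapbp, Psmb8, Psmb9, Psmb10 and Nlrc5) were found among 32285 genes. Their UMIs, which count captured RNA molecules, were summed per mouse and cell type in bone marrow of the 5TMM myeloma model. In that model, 5TGM1-luc mouse myeloma cells are injected intravenously into C57BL/KawRij mice at 6 weeks of age, so the tumor cells are 1 transplanted line in a host with its own immune system. All 4 mice carried these cells. The 2 vehicle mice were compared with 2 mice given 10 mg/kg purinostat mesylate (PM), an inhibitor of class I and IIb histone deacetylases, 24 h after treatment. Red cells were lysed before capture with the 10x Genomics 3' kit, and each library is taken as 1 mouse.

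MHC class I molecules display peptides from proteins made inside the cell to CD8+ T cells. A heavy chain such as H2-K1 or H2-D1 pairs with beta-2-microglobulin (B2m), receives a peptide in the endoplasmic reticulum and travels to the surface. The peptides are cut by the proteasome, in which interferon replaces the standard catalytic subunits by Psmb8, Psmb9 and Psmb10 (the immunoproteasome), and are pumped across the membrane by the Tap1-Tap2 transporter, to which tapasin (Tapbp) tethers the waiting class I molecule. Nlrc5 is the transactivator that assembles on the promoters of these genes together with the RFX, CREB/ATF and NF-Y factors. In myeloma and other tumors the pathway is studied because cells with little class I escape CD8+ T cells, while absence of class I exposes them to NK cells.

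On GRCm38, with GENCODE vM21 coordinates, 7 of the 10 genes lie on chromosome 17 and are encoded within the MHC or at its edge. From the low end these are Tapbp (chr17:33915899-33929292), H2-K1 (chr17:33996017-34000347), Psmb9 (chr17:34181987-34187764), Tap1 (chr17:34187553-34197225), Psmb8 (chr17:34197721-34201454), Tap2 (chr17:34203527-34216321) and H2-D1 (chr17:35262730-35267499). B2m is on chr2:122147686-122153083, and Nlrc5 (chr8:94434356-94527272) and Psmb10 (chr8:105935735-105938444) are on chromosome 8.

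The promoters of the heavy chain and of its partner are shown with their matches to the letters of 4 regulatory motifs. The part of these matches in the levels below was not tested. In each sequence of 130 bases, taken from RefSeq (GRCm38.p6) and written 5′ to 3′ on the gene's strand, capitals mark matches to an NF-kB type motif (GGGNNTTCC), the core of an interferon-stimulated response element (TTTCNNTT), a CREB/ATF site of the X2 type (TGACGC) and an inverted CCAAT box (ATTGG), searched on both strands, with no overlap between motifs. The H2-K1 stretch is chr17:34000348-34000477 on the minus strand (bases -130 to -1 before the RefSeq start), and the B2m stretch is chr2:122147537-122147666 on the plus strand (bases -150 to -21).
H2-K1: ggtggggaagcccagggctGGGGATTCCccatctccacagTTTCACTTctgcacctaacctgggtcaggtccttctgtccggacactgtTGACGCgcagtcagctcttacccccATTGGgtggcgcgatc
B2m: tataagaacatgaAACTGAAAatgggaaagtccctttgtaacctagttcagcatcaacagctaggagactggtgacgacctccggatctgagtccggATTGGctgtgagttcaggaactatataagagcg

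H2-K1 held all 4 motifs, beginning at -111, -90, -41 and -16. H2-D1 held the same 4 motifs in the same order and spacing, beginning at -171, -150, -101 and -76, and 117 of 130 aligned bases of the 2 heavy chain promoters were identical (90.0%). B2m held matches to 2 of the 4, the interferon core on the opposite strand at -137 and the inverted CCAAT box at -53. Sites that depart from these exact letters were not searched for, so a missing match does not show that a promoter lacks such a site. Of 27025 mouse promoters of the same length (250 bases before to 50 after the start), 5.72% held the NF-kB type motif, 24.2% the interferon core, 7.5% the X2 site and 37.9% the inverted CCAAT box, and 14 promoters (0.0518%) held all 4. Windows were matched for 8 members. Those of Tap1 and Psmb9, which are transcribed away from each other, shared 275 of their 300 bases, and each of these and Tapbp held matches to the inverted CCAAT box only. Psmb8 and Psmb10 held no match to these letters in the window.

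After filtering, 39743 cells were kept, between 7826 and 13387 per mouse, from 69828595 to 109447030 UMIs per library. Clusters were named from marker lists, and 19 cell types had at least 10 cells in every mouse. A level below is in CPM, counts per 1000000, that is the gene's UMIs scaled to the UMIs of all cells of that type in that mouse. Of 190 pairs of a member and a cell type, 180 had enough counts to be tested. The other 10 were Nlrc5 in 5 types (CAR stromal cells, macrophages, non-classical monocytes, megakaryocytes and basophil/eosinophil progenitors) and Tap1, Tap2, Psmb8, Psmb9 and Psmb10 in CAR cells. Any pair of libraries shared 18 to 39 cell barcodes, at most 0.421% of the smaller library.

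The levels across cell types are given without a test. H2-K1 ranged over 10.1-fold between the highest and the lowest type mean. It was highest in CAR stromal cells (3519 ± 696 CPM; SD over the 4 mice, as in the next values), T cells (3245 ± 424 CPM) and NK cells (3053 ± 886 CPM), whose values overlapped, and lowest in immature neutrophils (348 ± 140 CPM). H2-D1 ranged over 8.83-fold, down to non-clonal plasma cells (353 ± 79.9 CPM), whose CPM is lowered by immunoglobulin transcripts as given below. Its level was highest in CAR cells (3118 ± 429 CPM) and non-classical monocytes (2910 ± 483 CPM), and the latter did not overlap with the next type, mature neutrophils (1845 ± 112 CPM). B2m, the shared light chain, ranged over 4.63-fold, from 5377 ± 898 CPM in non-classical monocytes to 1162 ± 280 CPM in immature neutrophils. Over the 4 mice, the values of each type overlapped those of its neighbor in that order.

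The loading genes were ordered otherwise. Tap1 was highest in cDC (259 ± 20.9 CPM) and lowest in non-clonal plasma cells (44.4 ± 6.43 CPM), and Tap2 ran from 154 ± 7.07 CPM in HSPC to 47.3 ± 5.51 CPM in non-clonal plasma cells. Immunoglobulin transcripts took 50.5% to 61.7% of the UMIs of non-clonal plasma cells, which lowers their CPM for other genes. As CPM of the remaining UMIs, Tap1 was at 104 ± 7.71 and Tap2 at 112 ± 18.2 there. These lowest places therefore depend on the scaling. Tapbp was highest in pDC (536 ± 33.2 CPM), which did not overlap with cDC (463 ± 31.2 CPM), and lowest in megakaryocytes (77.3 ± 24.9 CPM). Immunoproteasome subunits were highest in cDC or monocytes. Psmb8 reached 420 ± 55.8 CPM in cDC and Psmb9 321 ± 57.8 CPM in the same cells, while Psmb10 reached 140 ± 12.6 CPM in monocytes. Psmb8 and Psmb9 were lowest in erythroid cells (37.6 ± 13.5 and 67.0 ± 24.6 CPM), and Psmb10 in mature neutrophils (7.98 ± 2.91 CPM). Nlrc5 had the widest range, 49.2-fold, from 152 ± 47.3 CPM in T cells, which did not overlap with NK cells (92.8 ± 27.4 CPM), to 3.09 ± 2.02 CPM in immature neutrophils. Neighbors in these orders overlapped in at least 16 of 18 places for every member when the values of the 4 mice were pooled. Within mice, some of these neighbors kept their order in all 4, as cDC did over the next type for Tap1, Psmb8 and Psmb9. Neighbors whose order changed between mice are not ranked by these data.

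**Figure D1:**
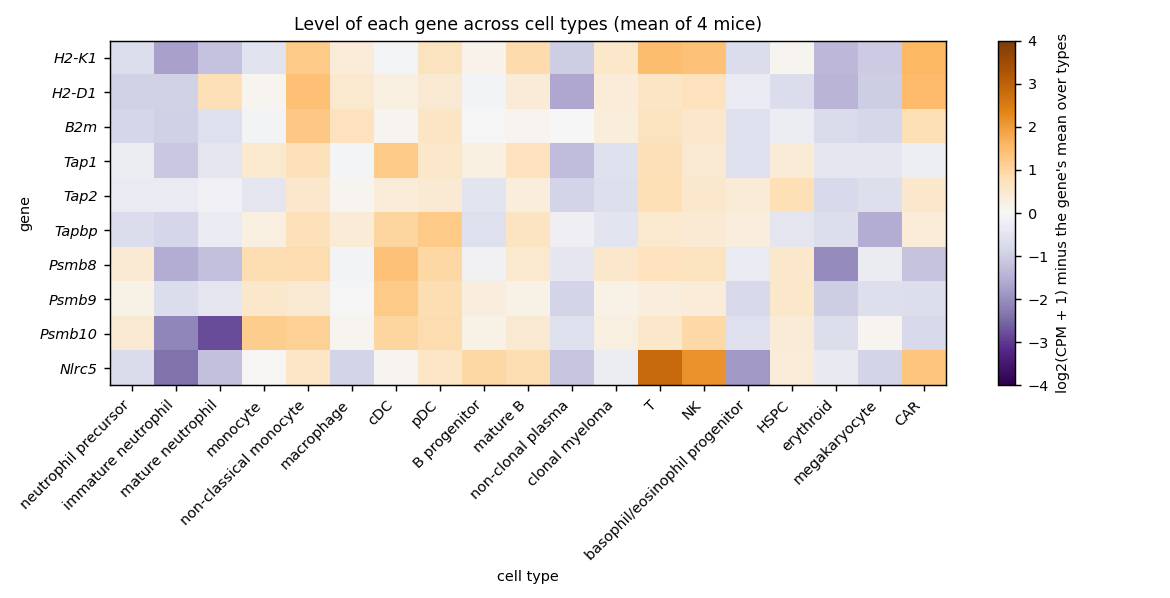
Each square shows the level of a gene (rows) in a cell type (columns) as log2(CPM + 1) of the mean over the 4 mice minus the gene's own mean over the 19 types, so colors compare types within a gene and not genes with each other. Nlrc5 is highest in T cells (152 CPM) and lowest in immature neutrophils (3.09 CPM), and Psmb10 is lowest in mature neutrophils (7.98 CPM).

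Within the neutrophil lineage the members took different courses. H2-D1 was at 574 ± 103 CPM in precursors, 578 ± 111 CPM in immature and 1845 ± 112 CPM in mature neutrophils. Psmb10 ran the other way, at 84.8 ± 12.7, 13.3 ± 2.13 and 7.98 ± 2.91 CPM over the same stages, and Psmb8 was at 213 ± 28.5, 53.4 ± 11.7 and 67.8 ± 10.3 CPM. H2-K1 was at 734 ± 158, 348 ± 140 and 504 ± 134 CPM, with overlap between the ranges of immature and mature cells over the 4 mice. These stages leave out 2 unnamed clusters. Cluster 3 (2953 cells) scored best for immature and next for mature neutrophils, and cluster 15 (809 cells) for immature neutrophils and precursors. In cluster 3, H2-D1 was at 1136 ± 73.5, Psmb10 at 7.05 ± 0.899, Psmb8 at 42.8 ± 11.2 and H2-K1 at 396 ± 138 CPM. A list of 8 neutrophil transcripts summed to 36153 to 52347 CPM in precursors, 353570 to 395270 CPM in immature and 274330 to 346050 CPM in mature neutrophils. Such shares lower the CPM of other genes, and the levels were not rescaled for them. The lowest places of H2-K1, B2m and Nlrc5 in immature neutrophils, given above, have the same limit. The genes outside the members whose levels followed a member most closely over the 19 types (Pearson r of log2 CPM, given as a description, since types come from the same 4 libraries) were Icam1, H2-Q4 and Nr1d2 for H2-K1 (r from 0.87 to 0.88), and Lnpep, Kif1c and Mvp for H2-D1 (r from 0.87 to 0.91). For B2m these were Serinc1, Clock and Icam1 (0.82 to 0.88), for Tap1 Nfkb1, Ifi35 and Trpc4ap (0.87 to 0.88), for Tap2 Crtc3, Zfp36l2 and Rbpms (0.79 to 0.84), and for Tapbp H2-T23, Ahnak and Ddit4 (0.84 to 0.87). They were Cd48, Tmem173 and Plekha1 for Psmb8 (0.88 to 0.91), Sec24b, Psme2 and Mfap3 for Psmb9 (0.83), Rnft1, Bfar and Zfp277 for Psmb10 (0.91 to 0.94), and the class I-like genes H2-Q4 and H2-Q7 with Sesn3 for Nlrc5 (0.85 to 0.89). Among the members, r was highest for Psmb8 with Psmb9 (0.89) and H2-K1 with B2m (0.89) and lowest for H2-D1 with Psmb10 (0.10).

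The first comparison asked whether PM changed the machinery in the tumor cells themselves. The clonal myeloma cluster held 171 cells (21 and 27 under vehicle, 92 and 31 under PM) and was named from a list of 7 markers (Rhox5, Igkv10-96, Ighg2b, Trpc1, Asph, Sdc1 and Tnfrsf17), of which 5 were raised. Rhox5 was at 523 to 708 CPM in these cells of the 4 mice and at 0 to 15.5 CPM in non-clonal plasma cells. Other listed genes went against the list: Ighg2b was at 12508 to 17777 CPM, below the 26262 to 46223 CPM of non-clonal plasma cells, and Tnfrsf17, the plasma cell receptor BCMA, was at 0 to 1.85 CPM against 66.8 to 115 CPM. None of the 10 members was called there (a call required an adjusted p below 0.05 and a log2 fold change beyond 0.5 either way), none had an unadjusted p under 0.05, and DESeq2 also called 0. The background was 0.524% of 8397 genes called higher and 0.119% called lower in this cluster. At an unadjusted p under 0.05, 417 of these genes were higher and 306 lower.

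H2-K1 in myeloma cells was at 2244 and 1395 CPM under vehicle and at 1907 and 1335 CPM under PM. H2-D1 was at 1689 and 1148 CPM against 1656 and 1116 CPM. B2m was at 3153 and 2598 CPM against 2966 and 2389 CPM. For all 3 genes vehicle 1 was the highest mouse, PM 2 the lowest, and the groups overlapped, with log2 fold changes of -0.18 (SE 0.25), -0.04 (SE 0.25) and -0.12 (SE 0.23).

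Tap1 was at 88.4 and 50.2 CPM under vehicle and 79.0 and 75.9 CPM under PM, and Tap2 at 62.0 and 39.7 CPM against 58.0 and 66.7 CPM. Tapbp was at 248 and 118 CPM against 127 and 138 CPM, so that vehicle 1 alone stood apart. The log2 fold changes were 0.20 (SE 0.24), 0.31 (SE 0.25) and -0.45 (SE 0.26). The groups overlapped for each of these genes.

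Of the immunoproteasome subunits in myeloma cells, Psmb8 was at 244 and 220 CPM in vehicle and 259 and 187 CPM in PM, Psmb9 at 191 and 158 against 169 and 106 CPM, and Psmb10 at 54.3 and 95.5 against 85.5 and 60.9 CPM. Their log2 fold changes were -0.06 (SE 0.21), -0.32 (SE 0.23) and -0.08 (SE 0.27). Nlrc5 rested on few molecules, 20 and 9 UMIs under vehicle and 60 and 12 under PM (31.0 and 7.28 against 18.5 and 10.0 CPM), and its log2 fold change of -0.11 had an SE of 0.57. These errors come from sums of 2 mice per group, and changes well beyond the errors could also go uncalled. Tapbp in non-clonal plasma cells, for example, was not called at -0.67 (SE 0.22). The absence of calls in myeloma cells thus does not show that the members were unchanged. Neutrophil transcripts were unequal between these libraries, 8 of them summing to 1236 and 4009 CPM in vehicle and 13935 and 1560 CPM in PM, and their part in the members' values was not tested. Jchain, the joining chain of secreted IgA and IgM, was at 105 and 205 CPM in vehicle and 2457 and 1107 CPM in PM myeloma cells. Igha, the more abundant of the pair in non-clonal plasma cells, was at 30.8 to 51.7 CPM in myeloma cells of the 4 mice. The source of the Jchain RNA was not tested.

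**Figure D2:**
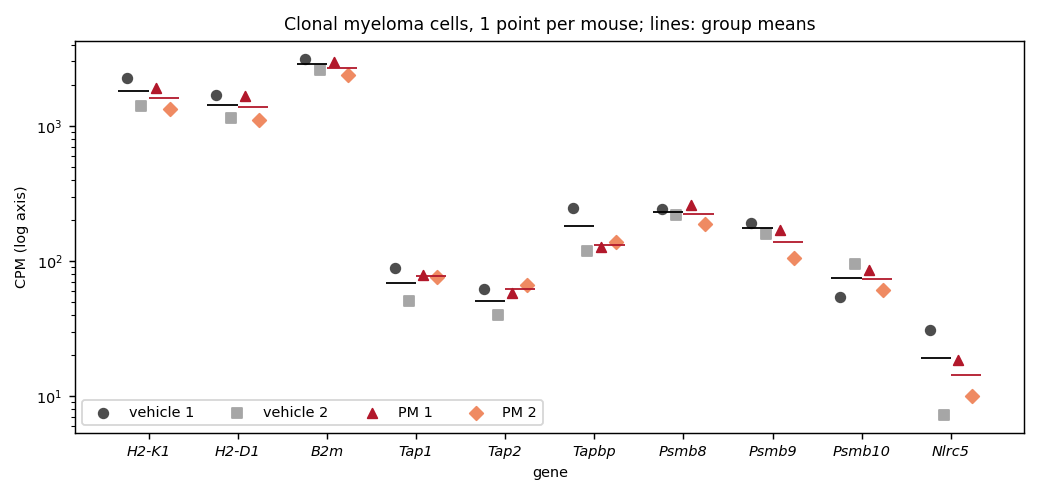
Points give the CPM (log axis) of each member in clonal myeloma cells of each of the 4 mice, and horizontal lines the mean of 2 mice per group (vehicle black, PM red). For every member the vehicle and PM mice overlap, as for H2-K1 with 2244 and 1395 CPM in vehicle and 1907 and 1335 CPM in PM.

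Non-clonal plasma cells, named from markers of antibody-secreting cells, were taken as the nearest counterpart outside the myeloma cluster. Their origin from the host was not tested. The paper inferred copy number changes throughout its plasma cells and regarded every plasma cluster as neoplastic. In non-clonal plasma cells 0 of the 10 members passed by edgeR and by DESeq2, where edgeR called 5 of 6362 genes higher and 3 lower. Only Tapbp had an unadjusted p under 0.05. It was at 237 and 220 CPM in vehicle and 171 and 156 CPM in PM, both PM mice below both vehicle mice (log2 fold change -0.67, SE 0.22, adjusted p = 0.51). Immunoglobulin transcripts took 50.5% to 61.7% of the UMIs of these cells and 4.05% to 5.25% of those of myeloma cells, so a CPM of all UMIs is lower in plasma cells by construction. As CPM of the UMIs that were not immunoglobulin, H2-K1 was at 1808 ± 462 in myeloma cells and 1372 ± 240 in non-clonal plasma cells, B2m at 2917 ± 373 and 5239 ± 1041, and Tapbp at 166 ± 64.2 and 466 ± 118 (SD, n = 4 mice). The PM effect was tested for a difference between myeloma and non-clonal plasma cells in 1 model with the mouse as a block, and 0 of the 10 members differed. The largest difference was that of Tap2 (0.77 higher in myeloma cells on the log2 scale, SE 0.36, adjusted p = 0.60), the only member with an unadjusted p under 0.05. Of all 9007 genes in that test, 14 were called higher and 19 lower, and 717 had an unadjusted p under 0.05.

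Across the 19 types, 2 of 180 pairs of member and cell type were called higher under PM (1.11%) and 0 lower, against a background of 1.31% of 152076 tests of all genes called higher and 0.537% lower. At an unadjusted p under 0.05, 19 pairs were higher and 3 lower. By cell type, all genes higher at that p ran from 66 of 4833 in NK cells to 1632 of 11352 in immature neutrophils. Genes lower ran from 71 of 5715 in macrophages to 993 of 8983 in B progenitors. These ranges are wide, so the counts of pairs at the unadjusted p are not read as a result about the members. DESeq2 called 2 pairs higher and 0 lower, beside 0.803% and 0.327% of all tests. The median log2 fold change of the 180 pairs was 0.15 and that of all genes -0.00065. The 2 called pairs were Psmb8 in B progenitors and Nlrc5 in immature neutrophils.

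Psmb8 in B progenitors was at 88.3 and 105 CPM under vehicle and 228 and 153 CPM under PM, from 30, 218, 282 and 149 UMIs. Both PM mice were above both vehicle mice. The log2 fold change was 0.99 (SE 0.21, adjusted p = 0.0037). These cells had a high background of calls, 5.71% of 8983 genes higher and 4.71% lower, and vehicle 2 held 496 of the 884 cells. Their median UMIs per cell were 2504 and 2595 in vehicle and 3486.5 and 3793 in PM. Whether the cells differed in stage or size between groups was not tested. The call was lost without PM 1 (0.63, adjusted p = 0.10) and held in 12 of 13 settings of the fit. Psmb9 in the same cells was at 144 and 145 CPM against 213 and 166 CPM and was not called (0.44, SE 0.19, adjusted p = 0.16), and Psmb10 was at 58.9 and 78.8 CPM against 75.9 and 66.9 CPM (0.0052, SE 0.22). In immature neutrophils, Psmb8 was at 44.3 and 46.0 CPM in vehicle and 70.0 and 53.2 CPM in PM, without a call (0.36, SE 0.16, adjusted p = 0.24), except without PM 2 (0.60, adjusted p = 0.0016).

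Nlrc5 in immature neutrophils was at 2.19 and 0.782 CPM in vehicle and 4.00 and 5.39 CPM in PM, from 60, 15, 106 and 106 UMIs in between 1819 and 3430 cells per mouse. All PM values lay above all vehicle values, and the log2 fold change was 1.48 (SE 0.37, adjusted p = 0.049), with 5.45% of 11352 genes called higher in this type. The call stood close to the threshold: it was lost without vehicle 2 (0.99, adjusted p = 0.052), without PM 1 (1.63, adjusted p = 0.063), without PM 2 (1.34, adjusted p = 0.096) and with RLE size factors (1.47, adjusted p = 0.051), and rose to 2.44 (adjusted p = 0.018) without vehicle 1. In T cells, where the gene was most abundant, Nlrc5 was at 221 and 121 CPM in vehicle and 123 and 142 CPM in PM (-0.33, SE 0.25, adjusted p = 0.74). In monocytes it was at 32.2 and 12.7 CPM against 17.9 and 21.1 CPM, and in mature neutrophils at 12.8 and 5.38 CPM against 6.32 and 8.20 CPM. In these 3 types both PM mice lay between the vehicle mice. T cells made up 2.38% and 2.76% of the cells in vehicle and 5.48% and 5.23% in PM. The part of RNA from other cells in the low Nlrc5 values of immature neutrophils was not tested. The immature class pools clusters 0, 4, 5 and 31. For Nlrc5 the log2 fold change was 1.45 (SE 0.34, adjusted p = 0.021) in cluster 0. It was 1.66 (SE 0.53) in cluster 4 and 1.26 (SE 0.52) in cluster 5, without a call. Cluster 0 held 1194 of 2568 and 825 of 1819 immature cells in vehicle, against 1877 of 3430 and 1415 of 2488 in PM. Median UMIs per immature cell were 8998.5 and 8846 in vehicle and 6030 and 6462 in PM. The part of these shifts in the call was not tested.

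**Figure D3:**
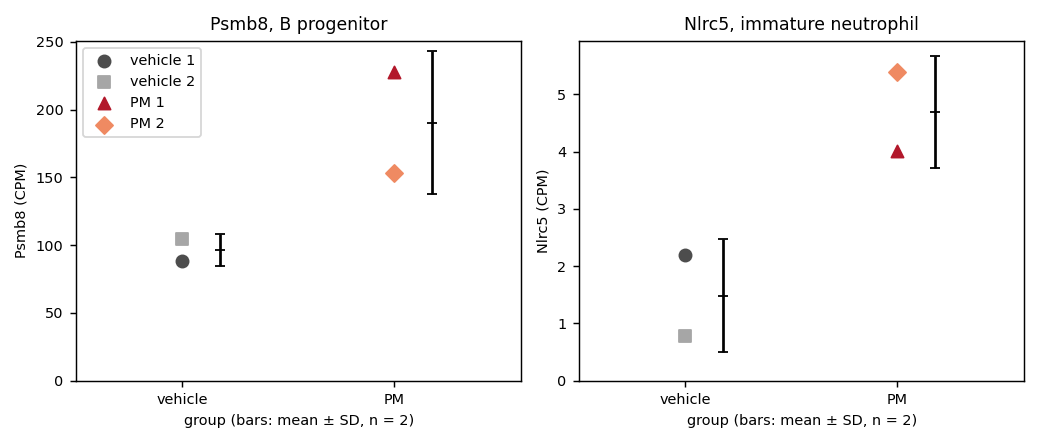
Points give Psmb8 in B progenitors (left) and Nlrc5 in immature neutrophils (right) in CPM for each mouse, and bars the mean ± SD of 2 mice per group. Both PM mice lie above both vehicle mice in each panel, 228 and 153 against 88.3 and 105 CPM for Psmb8 and 4.00 and 5.39 against 2.19 and 0.782 CPM for Nlrc5.

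The heavy chains and B2m leaned upward without passing the test. H2-K1 had a positive log2 fold change in 17 of 19 types, from -0.18 (SE 0.25) in myeloma cells to 0.81 (SE 0.44) in megakaryocytes, and H2-D1 in 18 of 19, from -0.04 (SE 0.25) in myeloma cells to 0.70 (SE 0.36) in megakaryocytes. B2m was positive in 15 of 19, from -0.24 (SE 0.28) in non-clonal plasma cells to 0.42 (SE 0.34) in megakaryocytes. Both PM mice were above both vehicle mice in 24 of the 57 pairs of these 3 genes (42.1%) and below in 0 of 57, against 23.2% above and 17.6% below over all genes and types. The adjusted p of each missed the threshold in all 57. This lean depended on vehicle 2. Without that mouse H2-K1 was positive in 13 of 19 types (median 0.11 against 0.33), H2-D1 in 11 (0.08 against 0.25) and B2m in 12 (0.03 against 0.24), and the value of H2-K1 in megakaryocytes was 0.25. Without vehicle 1 they were positive in 19, 19 and 16 types.

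H2-K1 in monocytes was at 761 and 513 CPM in vehicle and 922 and 1022 CPM in PM (0.57, SE 0.19, adjusted p = 0.18). In mature B cells it was at 2275 and 1388 CPM against 2474 and 2639 CPM (0.46, SE 0.18, adjusted p = 0.25). The groups did not overlap in either type, and vehicle 2 was the lowest mouse in both. In T cells H2-K1 was at 3695 and 2848 CPM against 2921 and 3518 CPM, with overlap (0.0023, SE 0.17).

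For transport and loading, the 55 tested pairs of Tap1, Tap2 and Tapbp had a median log2 fold change of 0.13. Both PM mice were above both vehicle mice in 14 pairs (25.5%) and below in 8 (14.5%). These shares were near the 23.2% and 17.6% over all genes and types. Tap1 in monocytes was at 155 and 103 CPM in vehicle and 180 and 176 CPM in PM (0.43, SE 0.19, adjusted p = 0.38). The largest value was Tap1 in megakaryocytes (1.22, SE 0.43, adjusted p = 0.74), at 55.2 and 44.0 CPM against 91.9 and 128 CPM, from 6 and 20 UMIs in vehicle. Megakaryocytes, which also gave the highest values of H2-K1, H2-D1 and B2m, held more neutrophil transcripts in PM: all 8 had a positive log2 fold change, they summed to 19370 and 3308 CPM in vehicle and 39658 and 70197 CPM in PM, and the granule gene Camp was called higher (5.45, SE 0.50). Their part in the members' values was not tested. Tapbp, the tether, accounted for 6 of the 8 pairs with both PM mice below. The 54 pairs of the immunoproteasome subunits had a median of 0.06, and Psmb10 was positive in 6 of 18 types, against 12 of 18 for Psmb8 and 13 of 18 for Psmb9. Psmb10 in mature neutrophils was at 10.1 and 10.8 CPM in vehicle and 6.20 and 4.84 CPM in PM, from 112, 68, 52 and 36 UMIs, and was not called (-0.87, SE 0.24, adjusted p = 0.074).

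**Figure D4:**
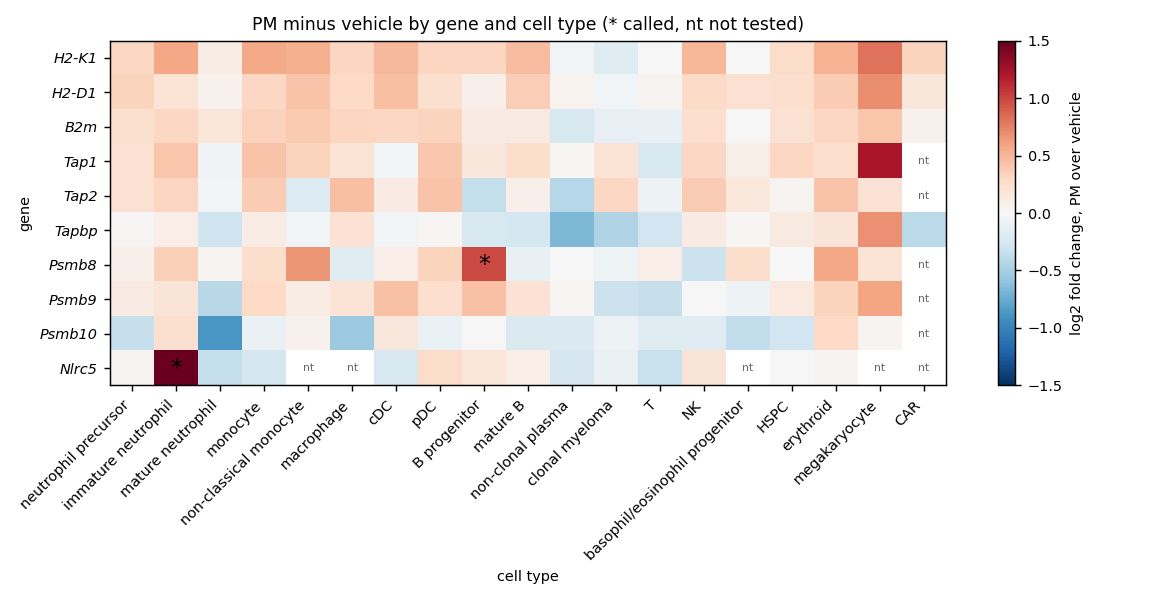
Each square gives the log2 fold change of PM over vehicle for a member (rows) in a cell type (columns), from 2 mice per group, with a star for called pairs and nt for pairs that were not tested. Only Psmb8 in B progenitors (0.99) and Nlrc5 in immature neutrophils (1.48) carry a star.

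The 2 vehicle mice differed from each other in these genes. Vehicle 2 was the lowest of the 4 mice in 115 of 180 pairs (63.9%), against 26.3% over all genes and types, and vehicle 1 was above vehicle 2 in 146 of 180 (81.1%), against 51.8%. For H2-K1, H2-D1 and B2m vehicle 2 was lowest in 46 of 57 pairs (80.7%), and for Nlrc5 in 13 of 14. For Psmb10 it was lowest in 2 of 18. Erythroid cells showed the widest gap (a median of 2.21 times over the 10 members): H2-K1 was at 511 CPM in vehicle 1 and 205 CPM in vehicle 2, next to 525 and 565 CPM in the PM mice.

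The calls depended on which vehicle mouse was kept. Without vehicle 1, 17 pairs were called higher (background 1.5%) and 0 lower, with 7 of them in erythroid cells and 5 of them H2-K1. Without vehicle 2, 1 pair was called higher and 6 lower (background 1.28% lower), among them Nlrc5 in T cells (-0.70), monocytes (-0.77) and mature neutrophils (-0.86). Without PM 1 no pair was called, and without PM 2 there were 2. A lone vehicle mouse is assumed in these fits to vary like the PM mice. What set vehicle 2 apart was not tested.

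The second comparison asked whether the PM effect differed between cell types of the same mice, which removes a level shared by all cells of a mouse. Of 40 tests (10 members in 4 pairs of types), 6 passed. The T cell effect was lower than the monocyte effect for Tap1 (by 0.68 on the log2 scale, SE 0.16, adjusted p = 0.018), Psmb9 (0.64, SE 0.17, adjusted p = 0.040) and H2-K1 (0.60, SE 0.16, adjusted p = 0.039). That is 3 of 10 members, with 0.86% of 12094 genes lower in the same test. Tap1 in T cells was at 244 and 164 CPM in vehicle and 171 and 166 CPM in PM, and in monocytes at 155 and 103 against 180 and 176 CPM. Psmb9 in T cells was at 233 and 146 CPM against 146 and 145 CPM, and in monocytes at 197 and 156 against 233 and 212 CPM. Both genes stood near the lower vehicle mouse in T cells of PM mice and above both vehicle mice in their monocytes.

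Leaving out any mouse kept the sign of these 3 differences, between -0.66 and -0.70 for Tap1, -0.46 and -0.79 for Psmb9, and -0.49 and -0.69 for H2-K1. The calls themselves were lost for all 3 without vehicle 1 or without PM 1. Without vehicle 2, Psmb9 and Tap1 were called, and without PM 2 only H2-K1. For mature B cells against monocytes 0 of 10 differed, and 3 had an unadjusted p under 0.05. Of all 11807 genes in that test, 157 were called higher and 105 lower, and 1339 had an unadjusted p under 0.05.

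In neutrophils, the PM effect was higher in immature than in mature cells for Nlrc5 (by 1.88, SE 0.30, adjusted p = 0.0052), Psmb10 (1.15, SE 0.25, adjusted p = 0.029) and Psmb9 (0.60, SE 0.13, adjusted p = 0.022), with 2.01% of 11537 genes higher in the same test. Psmb10 in immature cells was at 10.3 and 13.2 CPM in vehicle and 14.8 and 14.9 CPM in PM, while in mature cells both PM mice were below both vehicle mice. Psmb9 in immature cells was at 83.3 and 66.5 CPM against 97.8 and 84.7 CPM, and in mature cells at 126 and 97.5 CPM against 88.0 and 76.0 CPM. The mature class pools 3 clusters. Within them the log2 fold change of Psmb9 was -0.71 (SE 0.18, adjusted p = 0.040) in cluster 1, -0.13 (SE 0.19) in cluster 2 and -0.36 (SE 0.41) in cluster 9. Cluster 9 had the highest mean level of Psmb9 (196 CPM, against 94.1 and 81.3 CPM) and its share of mature cells was 9.7% and 24.5% under vehicle, against 16.1% and 14.7% under PM. For Psmb10 the 3 values were -0.79 (SE 0.47), -0.41 (SE 0.30) and -1.68 (SE 0.57), and for Nlrc5 -0.67 (SE 0.51), 0.26 (SE 0.43) and -0.66 (SE 0.77). H2-K1 (0.50, SE 0.11, adjusted p = 0.032) and Tap1 (0.49, SE 0.12, adjusted p = 0.041) missed the fold threshold. Without vehicle 1 Psmb9 fell to 0.47, under the fold threshold, and H2-K1 (0.57) passed. Without vehicle 2 all 3 were called, with Tap1 as well. Without PM 1 or PM 2 none was, with Nlrc5 at 1.85 (adjusted p = 0.14) and 1.90 (adjusted p = 0.052).

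**Figure D5:**
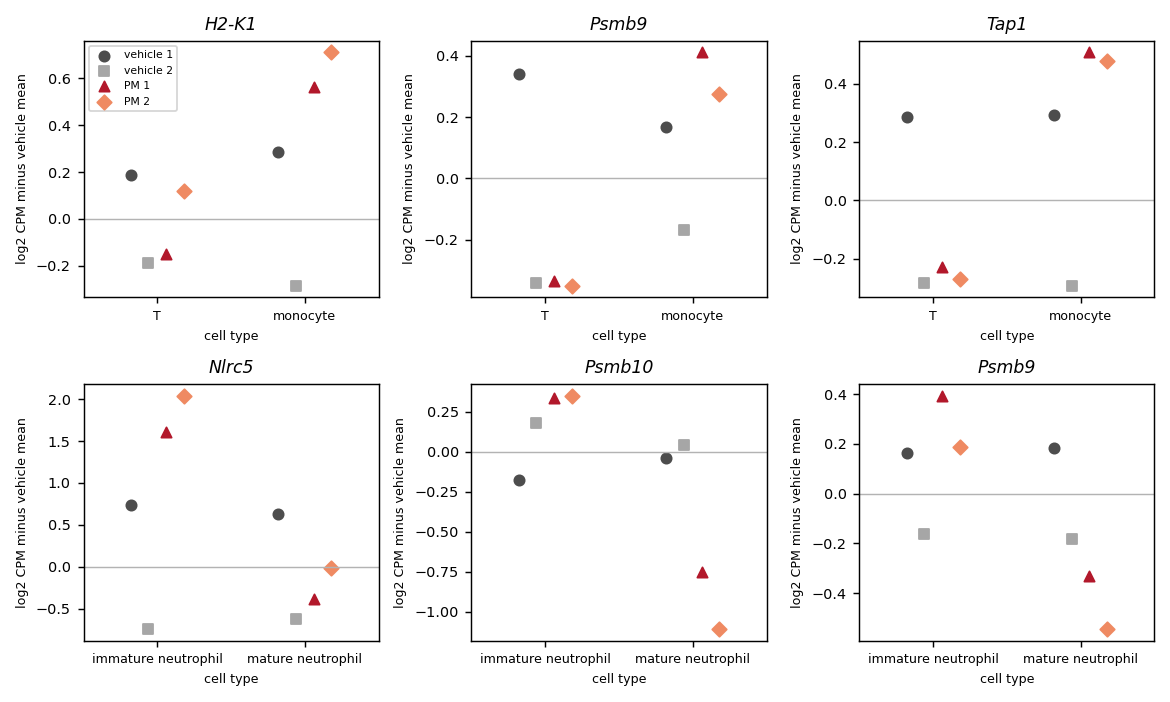
Points give log2 CPM minus the mean log2 CPM of the 2 vehicle mice of that cell type, per mouse, for the 3 members whose PM effect differed between T cells and monocytes (top) and the 3 that differed between immature and mature neutrophils (bottom). In the top row the PM mice lie above both vehicle mice in monocytes and not in T cells. For Tap1, the PM mice were at 180 and 176 CPM in monocytes. In T cells they were at 171 and 166 CPM, and the vehicle mice at 244 and 164 CPM.

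The rest of the pathway gives the setting of these values. In 11 class I-like genes that were in the files (H2-Q, H2-T and H2-M genes, Cd1d1, Mr1 and Fcgrt), 5 of 159 pairs were called higher and 0 lower, beside the 1.31% and 0.537% of all tests, with a median log2 fold change of 0.29. H2-Q7 was higher in cDC (1.81, SE 0.32, adjusted p = 0.023), at 58.6 and 27.0 CPM in vehicle and 158 and 121 CPM in PM, where 0.164% of 6721 genes were called higher. H2-Q4 was higher in pDC (0.86, SE 0.22, adjusted p = 0.047), where 0.875% of 8118 genes were. In immature neutrophils Mr1, which presents microbial vitamin metabolites to MAIT cells, was higher (3.31, SE 0.48), at 0.182 and 0.104 CPM in vehicle (5 and 2 UMIs in all) against 1.51 and 1.78 CPM in PM (40 and 35 UMIs), as were H2-T24 (0.91, SE 0.15) and H2-Q10 (0.82, SE 0.20), in a type with 5.45% of genes called higher. Mr1 passed the low-count filter only through its PM counts, so its call and fold change are given as a description. Reads of H2-K1, H2-D1 and the H2-Q and H2-T genes can be shared between near-identical copies, so their division is uncertain.

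In B progenitors, where Psmb8 was called, 3 of 6 genes for loading and trimming were also higher: Calr (1.13, SE 0.17), Hspa5 (0.92, SE 0.18) and Canx (0.79, SE 0.17), all chaperones of the endoplasmic reticulum that serve many proteins besides class I. The share over all genes of this type was 5.71% higher. Of the proteasome genes outside the immunoproteasome, the activator subunits Psme3 (0.68, SE 0.20) and Psme1 (0.57, SE 0.18) were higher there, 2 of 6. These are all the calls of both lists over 107 and 109 pairs, whose medians were -0.04 and 0.02. The standard catalytic subunits Psmb5, Psmb6 and Psmb7 were not called in any type. Neutrophil transcripts, a sign of RNA from other cells, summed to 37666 and 29977 CPM in vehicle and 36825 and 27423 CPM in PM B progenitors, and haemoglobin transcripts to 91.3 and 1506 against 84.7 and 2888 CPM.

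Of 22 regulators of the pathway (interferon receptors, JAK-STAT and IRF factors, NF-kB, RFX and NF-Y subunits), 0 of 363 pairs were called higher by edgeR or DESeq2, and 3 were called lower by edgeR (2 by DESeq2), beside 0.537% of all tests. By DESeq2, 0.327% of all tests were called lower. At an unadjusted p under 0.05, 15 pairs were higher and 20 lower, with the range over all genes given above by cell type. Like those of the members, these counts are not read as a result. Socs1, a brake on JAK-STAT signaling, was lower in B progenitors (-1.22, SE 0.31), as was the kinase Jak2 (-1.23, SE 0.35). Ifngr1, a chain of the interferon gamma receptor, was lower in mature neutrophils (-0.68, SE 0.14), where 1.77% of 9517 genes were called lower, at 141 and 142 CPM in vehicle and 81.1 and 90.6 CPM in PM. Rfx5, Rfxap, Rfxank and the NF-Y genes, whose products bind class I promoters with Nlrc5, were not called in any type.

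A check list held 15 interferon-induced genes, 14 of them in the files. Of their 164 pairs, 32 were called higher in 9 types and 0 lower, with a median of 0.77. Some of the called pairs passed the low-count filter only through PM mice, as Gbp7 in pDC did (0 and 3 UMIs in vehicle, 48 and 13 in PM). Over all tests, 1.31% were called higher and 0.537% lower. DESeq2 called 30 of the pairs higher and 0 lower. Rsad2, an antiviral enzyme, was at 11.9 and 10.7 CPM in vehicle and 62.5 and 50.7 CPM in PM for immature neutrophils (2.23, SE 0.15), and at 7.58 and 11.7 against 39.6 and 37.4 CPM in monocytes (1.98, SE 0.20). In myeloma cells only 3 of the 14 passed the filter, and none was called. In T cells 13 were tested and none was called, with a median of 0.29. Vehicle 2 was the lowest mouse in 111 of the 164 interferon pairs (67.7%) and in 104 of the 159 class I-like pairs (65.4%), beside the 26.3% of all genes. For the standard proteasome and activator genes it was lowest in 29 of 109 (26.6%).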

How the data were processed

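Bone marrow of 2 vehicle and 2 PM mice was profiled by 10x Genomics 3' single-cell RNA sequencing. The authors aligned reads with Cell Ranger (6.0.1 in the matrix headers) and deposited raw counts, that is UMIs per gene and barcode, without normalization; the reference is GRCm38 in the study's methods and GRCm39 in the submitters' processing notes, so coordinates printed here come from GENCODE vM21 (GRCm38) by gene ID, of which 32158 of 32285 matched. The numbers of the libraries are taken as separate mice, and p-values measure the spread between these samples.

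Cells needed 300 detected genes or more and no more than 20% of UMIs from mitochondrial genes. Doublets were scored with the Scrublet method in scanpy 1.11.5 and kept in the sums. The threshold was set at 0.25 (1.72% to 4.19% called) after the automatic thresholds ran from 0.1885 to 0.5795 between mice. Of simulated doublets, 25.7% to 34.8% scored above 0.25, so fits without called doublets can still hold many. Cells were clustered on 2500 variable genes without the members and pathway genes (30 components, 15 neighbors, leidenalg 0.10.2, igraph 0.11.9, resolution 1, seed 1), with a second split of the pDC-led and CAR-led clusters at 0.3. Clusters were named from marker lists (at least 20 cells, 3 raised markers and a margin of 0.4, all chosen once the clusters were known). There were 5 clusters with 4263 cells that stayed unnamed, and endothelial cells (57) were too few to test.

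Counts were summed per mouse and type and analysed by the robust quasi-likelihood test of edgeR 4.0.16 under R 4.3.3, with TMM factors and filterByExpr, over all genes, with Benjamini-Hochberg adjustment; calls needed an adjusted p under 0.05 and an absolute log2 fold change over 0.5. Differences between types were tested as an interaction with the mouse as a block. The scripts were tested on simulated data. Alternatives were DESeq2 1.42.0, RLE or total scaling, no filter, a replicate block, each mouse left out, stricter cells (500 genes, 10%) and called doublets left out. All 10 members were described, with full statistics for called pairs, per-mouse values in myeloma cells, called genes of the pathway lists, and the 3 genes most like each member among those of at least 20 CPM (pseudocount 1); further per-mouse values of pairs that were not called were chosen after they were seen. The members and lists were chosen with earlier results of these data known. H2-T10 and Mx1 were not analysed here.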

Additional observations from a re-analysis of the deposited data

Results flagged for a closer look

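The PM effect differed between cell types of the same mice for 6 of 40 tests by the interaction term, and no explanation was weighed. Between T cells and monocytes the difference in log2 fold change was -0.60 for H2-K1, -0.64 for Psmb9 and -0.68 for Tap1, lower in T cells. Between immature and mature neutrophils it was 1.88 for Nlrc5, 1.15 for Psmb10 and 0.60 for Psmb9, higher in immature cells. All 6 kept their sign when any of the 4 mice was left out. Groups of 2 mice are too small for the test of single samples that stand apart.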

How the results depend on the processing

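The count of pairs called higher was 2, and 1 with RLE size factors. Over fits without each mouse, it ran from 0 (without PM 1) to 17 (without vehicle 1), and the count called lower from 0 to 6 (without vehicle 2). Pairs called lower numbered 1 with no low-count filter (Psmb10 in mature neutrophils, -0.93) and 1 with the crossed pairing of mice, against 0. The myeloma count stayed at 0 in all 12 alternatives. The members whose effect differed numbered 0 to 2 for T cells against monocytes when each mouse was left out. For immature against mature neutrophils they numbered 0 to 4 in the same fits. Both counts were 3 with all mice and stayed at 3 with RLE size factors, no filter or called doublets left out. Leaving out mice for these differences, and the crossed pairing, were chosen after seeing the data. The causes were not tested, beyond the smaller number of mice. Scaling to totals only moved the median of all genes in non-clonal plasma cells to 0.20 and called 3 pairs higher, with Tap1 in immature neutrophils (0.52) added.

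The labels give both groups the numbers 1 and 2, which name no shared litter or day. Deviations of same-numbered mice did not correlate in the sums of all cells (r = -0.00042 over 15581 genes) and ran from -0.14 in mature neutrophils to 0.47 in CAR cells by type, so the numbers were not taken as pairs. With the replicate block 3 pairs were called higher, H2-K1 in mature B cells (0.50, adjusted p = 0.034) being added. Crossed numbers gave 2 higher and 1 lower. Depth limits Nlrc5, with under 25 UMIs in a mouse in 14 of 19 types, and 2 mice a group limit every p.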
